A study of Mus musculus with 56 samples.

Results

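The genes described here are 10 genes of the integrated stress response, measured by RNA sequencing in the livers of 56 female mice. They were chosen by name: the transcription factor genes Atf4, Atf5, Atf3 and Ddit3 (encoding CHOP), the feedback genes Trib3 and Ppp1r15a (encoding GADD34), the stress-induced gene Sesn2, and the enzymes of asparagine and serine synthesis Asns, Psat1 and Phgdh. Each symbol was matched to 1 Ensembl identifier, so the set holds 10 of the 45513 genes in the count files. After the filter on low counts, 14314 genes were tested, among them 9 of the 10. Phgdh did not pass.

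All mice were APOE*3Leiden.CETP mice, which carry human lipoprotein genes and develop high plasma lipids and atherosclerosis, and all ate a Western-type diet with 0.15% cholesterol and 15% cacao butter. The mice used were 9 to 14 weeks old, and treatment followed a run-in on the diet. Control mice were gavaged with the vehicle, 5% carboxymethyl cellulose. The inhibitors of the BCR-ABL1 kinase were imatinib at 150 mg/kg in 2 gavages a day, nilotinib at 10 or 30 mg/kg once a day, and ponatinib at 3 or 10 mg/kg once a day, given for 16 weeks. A reference group received the vehicle and L-NAME, an inhibitor of nitric oxide synthase, at 0.12 to 0.20% of the drinking water, for a time that is not given in the sources used here. Each of the 7 groups had 8 livers, so that the 6 comparisons with control rest on the same 8 control mice. Whole liver was sequenced, in which fewer cells of a type and less RNA per cell cannot be told apart.

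In the integrated stress response, kinases that sense unfolded protein, lack of amino acids, lack of haem or viral RNA phosphorylate the initiation factor EIF2. General translation then slows, while translation of the Atf4 message, which is held back by upstream reading frames in unstressed cells, increases. The ATF4 protein drives genes of amino acid synthesis and transport, other transcription factors such as Atf5, Atf3 and Ddit3, and feedback genes that end the response, among them Ppp1r15a, whose product brings a phosphatase to EIF2, and Trib3, a pseudokinase that binds ATF4. Because the first step acts on translation, the level of the Atf4 message does not measure the ATF4 protein.

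ATF4 binds with C/EBP partners to a composite element whose core letters are TGATGNAA. These letters were searched on both strands of the promoter windows of RefSeq, 250 bases before to 50 bases after each start site on GRCm38.p6. All 10 genes had a window, in 12 windows in all. The core letters stood in the windows of 3 genes, Asns, Atf3 and Trib3, and in 3.97% of the 32851 windows of all genes. With the looser letters TGNTGNAA, which contain the first set and were chosen after seeing the data, 6 of the 10 genes had a match. The added genes were Sesn2, Psat1 and Phgdh. These letters stood in 14.8% of all windows, a share by window and not by gene. The cyclic AMP response element TGACGTCA, which matches neither set of letters, stood in the Ppp1r15a window and in 1.79% of all windows. The windows below show the amino acid synthesis genes and the stress genes with these matches, each on the strand of its gene, with the matched letters in capitals and the bases after the start site left out.
Asns, TGATGNAA, chr6:7693210-7693262, minus strand: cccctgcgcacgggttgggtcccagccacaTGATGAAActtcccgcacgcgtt
Atf3, TGATGNAA on the other strand, chr1:191183406-191183473, minus strand: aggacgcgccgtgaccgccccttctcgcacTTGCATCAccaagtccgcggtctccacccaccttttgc
Trib3, TGNTGNAA, chr2:152344061-152344123, minus strand: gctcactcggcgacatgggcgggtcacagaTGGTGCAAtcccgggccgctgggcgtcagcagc
Psat1, TGNTGNAA, chr19:15925158-15925225, minus strand: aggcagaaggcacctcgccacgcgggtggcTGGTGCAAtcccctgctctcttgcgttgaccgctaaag
Phgdh, TGNTGNAA, chr3:98340055-98340122, minus strand: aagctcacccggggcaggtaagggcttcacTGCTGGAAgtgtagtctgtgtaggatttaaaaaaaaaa
Sesn2, TGNTGNAA on the other strand, chr4:132510637-132510704, minus strand: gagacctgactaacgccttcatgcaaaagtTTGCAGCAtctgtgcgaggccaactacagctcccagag
Ppp1r15a, TGACGTCA, chr7:45526269-45526310, minus strand: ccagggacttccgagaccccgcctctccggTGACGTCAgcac
The first matched base lay 23 bases before the start site in Asns, 110 in Atf3, 33 in Trib3, 136 in Psat1, 123 in Phgdh, 218 in Sesn2 and 12 in Ppp1r15a. Trib3 and Psat1 had the same 8 letters, TGGTGCAA. The Trib3 match to the strict letters began 15 bases after the start site and is not shown. A match is a description of the letters and not evidence of binding. The Atf3 and Psat1 windows and the Asns match lie inside the span that GENCODE vM21 gives these genes, since RefSeq starts their transcripts further downstream. For Trib3 the GENCODE start is the one further downstream, and the strict Trib3 match lies before it.

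Reads on genes ranged from 5342379 to 97473341 per mouse, with a median of 7570238. The deepest library was L-NAME mouse 10, and the next deepest was control mouse 1 with 17996732 reads. The share of uniquely aligned reads outside annotated exons was 7.97% ± 0.42 (mean ± SD, n = 8) in control mice. It was higher in all 8 mice than in every control mouse with nilotinib 10 mg/kg, nilotinib 30 mg/kg, ponatinib 10 mg/kg and L-NAME (exact permutation test, two-sided, p = 0.000155 each, the smallest that 8 against 8 mice can give), in 6 of 8 with imatinib (p = 0.00109) and in 3 of 8 with ponatinib 3 mg/kg (p = 0.0466). Its part in the results was not tested except as a covariate, given below where it moved a call. Because this share differed between control and the treated groups, it cannot be fully told apart from treatment. A call lost with the covariate therefore does not show what the call was due to. The summed level of 8 hepatocyte markers lay between 67900 and 149000 CPM (edgeR counts scaled to a common library size) in all mice, and no marker of the 7 liver cell types examined was at 0 in every mouse of a group.

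In CPM per kilobase of exon, the 10 genes covered a wide range in the control livers. Atf5, a transcription factor related to ATF4 that is abundant in liver, had the highest level, with a median of 143 CPM per kilobase (85.5 to 207), and Atf4 followed with 40.7 (30.4 to 43.3). Trib3 was at 11.7 CPM per kilobase (9.95 to 23.0), Ddit3 at 7.80 (5.29 to 25.1), Sesn2 at 4.70 (2.02 to 6.88), Atf3 at 4.31 (1.34 to 19.0) and Ppp1r15a at 3.54 (1.65 to 5.05). Psat1, at 0.615 CPM per kilobase (0.491 to 2.05), Asns, at 0.299 (0.0444 to 0.969), and Phgdh, at 0.0156 (0 to 0.212), were the lowest. The ranges of Atf5, Atf4 and Trib3 did not overlap with one another, whereas each gene from Trib3 down overlapped with the next. Of the 3 synthesis enzymes, Phgdh had 95 reads in all 56 livers together and none in 42 of them, and 47.8% of the 50-base stretches of its transcripts also occur in other genes, led by the pseudogenes Gm7901, Gm9347 and Gm8341, so its low count is uncertain. Asns had 495 reads in all livers and none in 18 of them, and Psat1 had 1467 and none in 3.

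Atf4 was the member that differed from control most often. Its message was higher with imatinib, nilotinib 30 mg/kg, ponatinib 10 mg/kg and L-NAME, by 1.27 to 1.41 times. In control livers Atf4 lay between 71.8 and 102 CPM with a median of 95.9. With imatinib it lay between 107 and 141 CPM (median 115), with all 8 mice above every control mouse, and with ponatinib 10 mg/kg between 105 and 181 CPM (median 126), again with all 8 above. Nilotinib 30 mg/kg gave 96.1 to 150 CPM (median 115) and L-NAME 96.5 to 161 CPM (median 111), with 7 of 8 mice above every control in both groups. Nilotinib 10 mg/kg gave 74.3 to 132 CPM (median 112), with 6 of 8 above. The narrowest group was ponatinib 3 mg/kg at 93.5 to 105 CPM (median 101), which overlapped with control in 5 of its mice.

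On the log2 scale the Atf4 difference from control was 0.50 ± 0.11 (SE) with ponatinib 10 mg/kg (edgeR's quasi-likelihood test, Benjamini-Hochberg adjusted p = 0.000853). It was 0.38 ± 0.11 with nilotinib 30 mg/kg (adjusted p = 0.0201), 0.34 ± 0.11 with imatinib (adjusted p = 0.0313) and 0.34 ± 0.11 with L-NAME (adjusted p = 0.0245). With nilotinib 10 mg/kg it was 0.25 ± 0.11 (unadjusted p = 0.0226, adjusted p = 0.245), and with ponatinib 3 mg/kg 0.11 ± 0.11 (adjusted p = 0.821). Ponatinib at 10 mg/kg exceeded ponatinib at 3 mg/kg by 0.40 ± 0.11 (adjusted p = 0.0401), with all 8 mice of the high dose above every mouse of the low dose. Over the 7 groups together Atf4 differed with an adjusted p of 0.0038. With the share of reads outside genes as a covariate the estimates were 0.53 with ponatinib 10 mg/kg, 0.40 with nilotinib 30 mg/kg, 0.36 with imatinib and 0.37 with L-NAME, none smaller than without it, but the adjusted p stayed below 0.05 with ponatinib 10 mg/kg alone (0.0119, against 0.088, 0.0573 and 0.103), and the dose difference of ponatinib had an adjusted p of 0.269. Without the 3 libraries over 15000000 reads the dose difference had an adjusted p of 0.0658, and the 4 calls against control held. Without the filter on low counts the adjusted p was 0.0601 with imatinib and 0.0515 with L-NAME, and for the dose difference it ranged from 0.00859 to 0.269 over the alternative fits.

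**Figure D1:**
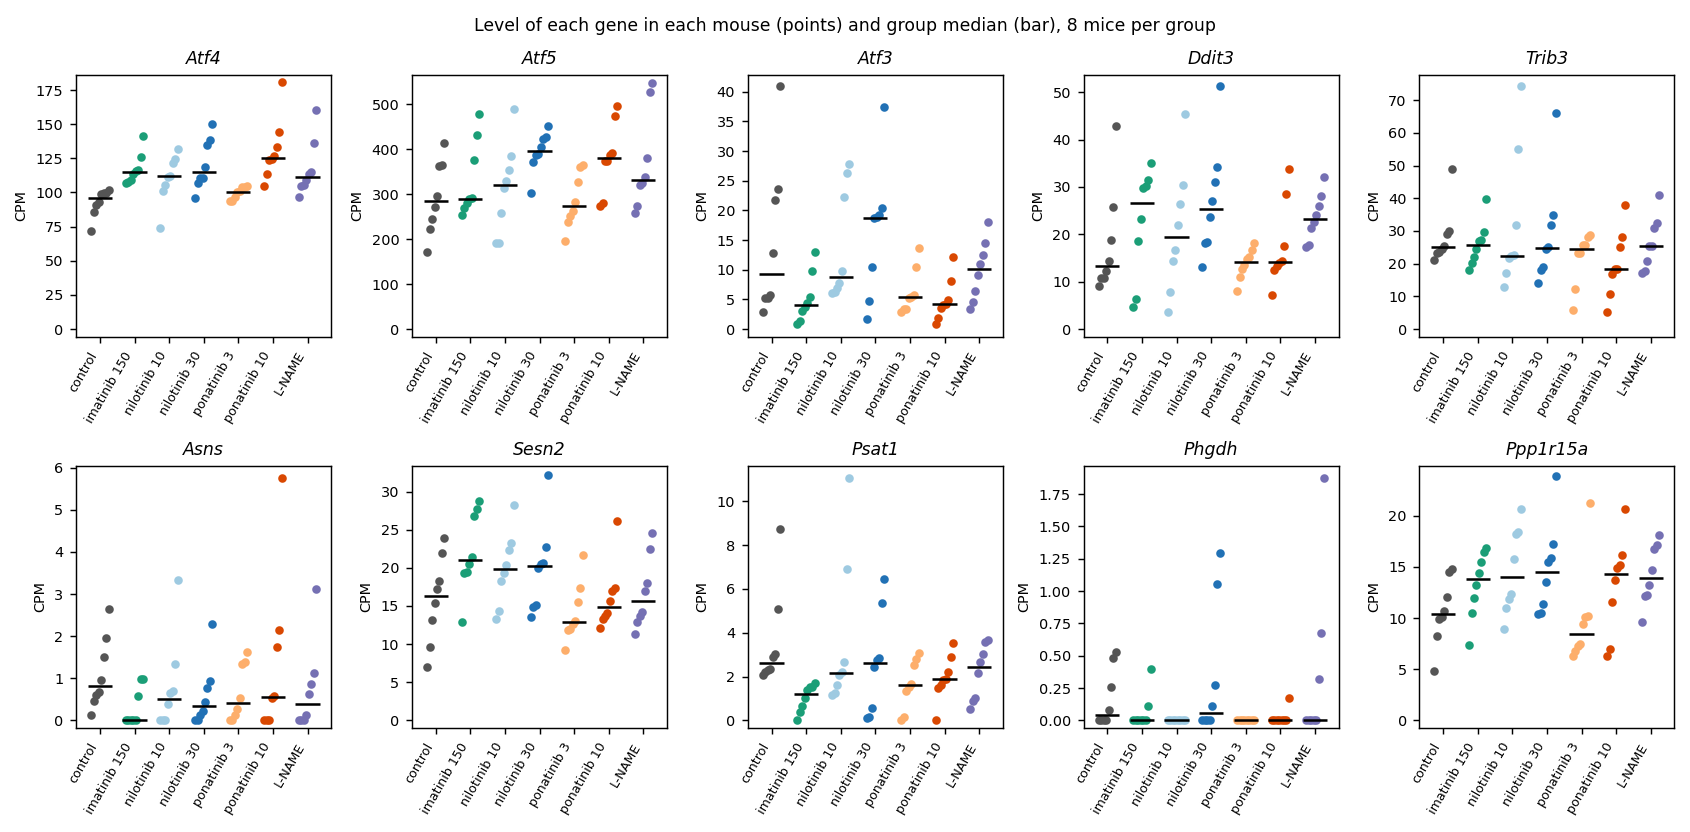
Level of the 10 genes in each of the 56 livers, in CPM on a linear axis that includes 0, by group (doses in mg/kg). Each point is 1 mouse and each bar the median of 8. Atf4 in the imatinib and ponatinib 10 mg/kg groups lies above all control points, while Atf3, Ddit3 and Trib3 show single high mice in several groups, control included.

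Atf3, an early stress-induced repressor, was called lower with imatinib and ponatinib 10 mg/kg, where Atf4 was higher. It was not called with nilotinib 30 mg/kg or L-NAME, where Atf4 was higher as well. With ponatinib 3 mg/kg neither gene was called, but the Atf3 estimate was negative there too. In control livers it ranged from 2.88 to 40.9 CPM with a median of 9.29. It lay between 0.840 and 13.0 CPM with imatinib (median 4.06) and between 0.939 and 12.1 CPM with ponatinib 10 mg/kg (median 4.15). Both groups overlapped with control, and 2 of 8 mice in each lay below every control mouse. Ponatinib 3 mg/kg gave 2.91 to 13.7 CPM (median 5.38), nilotinib 10 mg/kg 6.12 to 27.8 CPM (median 8.79), nilotinib 30 mg/kg 1.63 to 37.4 CPM (median 18.8) and L-NAME 3.40 to 18.0 CPM (median 10.0).

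The Atf3 difference from control was -1.57 ± 0.50 on the log2 scale with ponatinib 10 mg/kg (adjusted p = 0.0268) and -1.53 ± 0.50 with imatinib (adjusted p = 0.0387), that is 0.337 and 0.346 times the control level. The exact permutation test on log2 CPM alone gave p = 0.0418 and 0.0488. With ponatinib 3 mg/kg the difference was -1.25 ± 0.50 (unadjusted p = 0.0141, adjusted p = 0.347). Ponatinib at 10 mg/kg differed from ponatinib at 3 mg/kg by -0.32 ± 0.50 (adjusted p = 0.842), so no dose difference in Atf3 was detected. L-NAME was not compared directly with the kinase inhibitors. The nilotinib groups and L-NAME had estimates of -0.07, 0.14 and -0.57, with 95% intervals from -1.03 to 0.89, -0.82 to 1.10 and -1.54 to 0.39. Compared directly, at doses that differed, imatinib was lower than nilotinib 30 mg/kg by -1.67 ± 0.50 (adjusted p = 0.0458), and ponatinib 10 mg/kg by -1.72 ± 0.50 (adjusted p = 0.0554). At the matched dose of 10 mg/kg, ponatinib differed from nilotinib by -1.50 ± 0.50 (adjusted p = 0.0932), with 6 of 8 ponatinib mice below every nilotinib mouse.

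These Atf3 calls rest in part on control mouse 1, which had 40.9 CPM, while the other 7 control mice had 2.88 to 23.6 CPM. Without the 3 libraries over 15000000 reads, control mouse 1 among them, the Atf3 estimate was -1.15 with ponatinib 10 mg/kg (adjusted p = 0.143) and -1.10 with imatinib (adjusted p = 0.188), and with the share of reads outside genes as a covariate the adjusted p was 0.156 and 0.118. limma voom gave 0.119 and 0.0728. Over the 9 alternative fits the estimate stayed negative, from -1.58 to -1.15 with ponatinib 10 mg/kg and from -1.64 to -1.10 with imatinib, and the call held in 6 and 4 of them. The direct difference between imatinib and nilotinib 30 mg/kg had adjusted p of 0.0643 without the libraries over 12% outside genes, 0.0587 in the fit of these groups alone and 0.156 by limma voom. Some cell type markers were called with imatinib as well, where 10.3% of all genes were called. The summed level of 7 neutrophil and monocyte markers was 81.5 to 176 CPM with imatinib against 135 to 410 CPM in control, with 1 of 6 tested markers lower, and that of 8 Kupffer cell markers was 480 to 1020 CPM against 811 to 1550 CPM, with 2 of 8 lower. With ponatinib 10 mg/kg the sums were 95.8 to 494 CPM and 463 to 2390 CPM, with none of 6 and 2 of 8 called, both of them higher, where 13.1% of all genes were called. In the other lists, imatinib had 3 of 8 hepatocyte markers called (2 higher, 1 lower), 1 of 8 stellate cell markers higher and 1 of 8 lymphocyte markers lower. Ponatinib 10 mg/kg had 3 of 8 hepatocyte markers and 1 of 8 stellate cell markers higher. The part of these markers in the Atf3 result was not tested.

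Ddit3 encodes CHOP, a factor tied to cell death under lasting stress, and Trib3 is one of its targets. Neither was called in a comparison with control. Ddit3 ranged from 9.07 to 42.9 CPM in control livers (median 13.4), from 4.77 to 35.0 with imatinib (median 26.5), from 3.53 to 45.3 and from 13.2 to 51.3 with nilotinib 10 and 30 mg/kg (medians 19.3 and 25.4), from 7.99 to 18.1 and from 7.21 to 33.7 with ponatinib 3 and 10 mg/kg (medians 14.2 and 14.2), and from 17.4 to 32.0 with L-NAME (median 23.3). Every group overlapped with control. The largest Ddit3 estimate was 0.57 ± 0.34 on the log2 scale with nilotinib 30 mg/kg (unadjusted p = 0.0956, adjusted p = 0.385). The medians of Trib3 lay closer together, at 25.0 CPM in control (21.1 to 49.0), 25.7 with imatinib (18.1 to 39.7), 22.4 and 24.7 with nilotinib 10 and 30 mg/kg (12.9 to 74.4 and 14.1 to 65.9), 24.5 and 18.5 with ponatinib 3 and 10 mg/kg (5.96 to 28.6 and 5.17 to 37.8), and 25.3 with L-NAME (17.1 to 41.1). Its largest estimate was -0.50 ± 0.30 with ponatinib 10 mg/kg (adjusted p = 0.302), where 5 of 8 mice lay below every control mouse. The 68 exon bases that Ddit3 shares with Mars on the opposite strand, in a count whose strand setting is not given in the sources used here, leave a small part of its reads uncertain.

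None of the synthesis enzymes was called against control by edgeR's fit of all 7 groups together, and Phgdh could not be tested. Psat1, the second enzyme of serine synthesis, had 2.09 to 8.71 CPM in control livers (median 2.62) and 0 to 1.71 CPM with imatinib (median 1.18), so that all 8 imatinib mice lay below every control mouse. The exact permutation test on log2 CPM gave p = 0.000155, the smallest possible. In contrast, edgeR's fit of all 7 groups together gave -1.80 ± 0.68 with an unadjusted p of 0.0096 and an adjusted p of 0.0753. In the fit of the imatinib and control groups alone, and by DESeq2, the estimates were -1.80 and -1.81 with adjusted p of 0.0287 and 0.0251. None of the other alternative fits called Psat1 with imatinib. These levels are 0 to 12 reads per imatinib mouse and 16 to 99 reads per control mouse. Psat1 medians in the other groups were 2.15 and 2.60 CPM with nilotinib 10 and 30 mg/kg, 1.60 and 1.87 with ponatinib 3 and 10 mg/kg and 2.42 with L-NAME, with estimates of 0.02, -0.47, -1.12, -0.89 and -0.71 and no call.

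Asns, which makes asparagine, had no reads in 5 of 8 imatinib mice, in 2 or 3 of 8 mice of each other treated group, and in none of the control mice, where it had 1 to 51 reads. The highest level was 5.76 CPM, in a mouse given ponatinib 10 mg/kg. Its estimates against control ran from -1.80 ± 1.13 with imatinib (adjusted p = 0.34) to 0.27 ± 1.05 with ponatinib 10 mg/kg (adjusted p = 0.912), with intervals as wide as -4.11 to 0.43, so a change of several times in either direction was not detectable at this depth. For Phgdh, the first enzyme of serine synthesis, the highest level was 1.88 CPM, in L-NAME mouse 26 with 15 reads, and all 16 mice of nilotinib 10 mg/kg and ponatinib 3 mg/kg had none.

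Atf5 had a positive estimate in each of the 4 groups where Atf4 was called, without being called itself. It had 170 to 412 CPM in control livers (median 284), 302 to 450 CPM with nilotinib 30 mg/kg (median 396), 273 to 496 CPM with ponatinib 10 mg/kg (median 380) and 259 to 547 CPM with L-NAME (median 332). The estimates were 0.43 ± 0.17 (unadjusted p = 0.0155, adjusted p = 0.138), 0.38 ± 0.17 (0.0308 and 0.142) and 0.34 ± 0.17 (0.0505 and 0.208). limma voom with sample quality weights called all 3, with adjusted p of 0.00179, 0.0223 and 0.0368. In these comparisons limma voom called 16.4%, 26.1% and 26.1% of all genes, against 5.77%, 13.1% and 11.8% by edgeR. No other alternative fit called Atf5 in them. The medians with imatinib, nilotinib 10 mg/kg and ponatinib 3 mg/kg were 289, 321 and 273 CPM, with estimates of 0.18, 0.10 and -0.04. Atf5 shares 82 exon bases with Il4i1 on the opposite strand.

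Sesn2, a sestrin that restrains mTORC1 signalling when amino acids are short, and Ppp1r15a had no call either. Sesn2 ranged from 7.00 to 23.9 CPM in control livers (median 16.3) and from 12.9 to 28.8 CPM with imatinib (median 21.0), with 3 of 8 above every control mouse and an estimate of 0.47 ± 0.21 (unadjusted p = 0.024, adjusted p = 0.136). Its medians elsewhere were 19.8 and 20.2 CPM with nilotinib 10 and 30 mg/kg, 12.9 and 14.9 with ponatinib 3 and 10 mg/kg and 15.6 with L-NAME. Ppp1r15a ranged from 4.85 to 14.8 CPM in control livers (median 10.4), and its medians were 13.8 with imatinib, 14.1 and 14.5 with nilotinib 10 and 30 mg/kg, 8.46 and 14.3 with ponatinib 3 and 10 mg/kg and 13.9 with L-NAME. Its largest estimate was 0.47 ± 0.23 with nilotinib 30 mg/kg (unadjusted p = 0.0498, adjusted p = 0.267), where 4 of 8 mice lay above every control mouse.

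Counted together at an adjusted p below 0.05, 2 of the 9 tested genes were called with imatinib (Atf4 higher, Atf3 lower), where 10.3% of all genes were called, and 2 with ponatinib 10 mg/kg (the same directions), where 13.1% were. With nilotinib 30 mg/kg it was 1 of 9 (Atf4) against 5.77% of all genes, and with L-NAME 1 of 9 (Atf4) against 11.8%. With nilotinib 10 mg/kg none was called by edgeR, DESeq2 or limma voom, 1 had an unadjusted p below 0.05 (Atf4), and 1.41% of all genes were called. The same holds for ponatinib 3 mg/kg, where the gene below 0.05 was Atf3 and 0.0419% of all genes were called. In the test over all 7 groups 2 of 9 were called, Atf4 and Atf3 (adjusted p = 0.00909), against 18.7% of all genes. Read against these shares, counts of 0 to 2 in 9 genes are no result about the set as a whole. The median estimate of the 9 genes was 0.18 with imatinib, 0.19 and 0.32 with nilotinib 10 and 30 mg/kg, -0.39 and 0.02 with ponatinib 3 and 10 mg/kg and 0.08 with L-NAME, beside medians between -0.022 and 0.030 over all tested genes.

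At the study's cut-off of an unadjusted p below 0.01, 3 of 9 passed with imatinib (Psat1 in addition) against 12.9% of all genes, 2 with ponatinib 10 mg/kg against 15.0%, 1 with nilotinib 30 mg/kg against 9.35%, 1 with L-NAME against 14.0%, and none with nilotinib 10 mg/kg or ponatinib 3 mg/kg against 5.97% and 3.14%. By the stricter reading of all 8 mice above or all 8 below every control mouse, 2 of 9 qualified with imatinib (Atf4 and Psat1) against 1.14% of all genes, and 1 with ponatinib 10 mg/kg (Atf4) against 0.957%. None did with nilotinib 10 mg/kg, nilotinib 30 mg/kg, ponatinib 3 mg/kg or L-NAME, where 0.65%, 1.73%, 0.105% and 2.57% of all genes did, and between the ponatinib doses 1 of 9 did (Atf4) against 0.154%. Between treated groups, 1 of 9 was called between the ponatinib doses (Atf4), against 1.39% of all genes, and 1 between imatinib and nilotinib 30 mg/kg (Atf3), against 3.59%. By edgeR none was called between ponatinib and nilotinib at 10 mg/kg (2.06% of all genes, 3 members with an unadjusted p below 0.05), ponatinib at 10 and nilotinib at 30 mg/kg (1.88%, 1 member), imatinib and ponatinib 10 mg/kg (1.08%, 1 member) or the nilotinib doses (0.0%, no member). DESeq2 called 1 member between ponatinib at 10 and nilotinib at 30 mg/kg, and limma voom none in these 4 comparisons.

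With both at 10 mg/kg, which matches the dose in mg/kg but not the plasma exposure, the difference between ponatinib and nilotinib had a 95% interval of 0.04 to 0.47 for Atf4, -0.06 to 0.62 for Atf5, -0.92 to 0.44 for Ddit3, -1.29 to -0.09 for Trib3, -0.71 to 0.11 for Sesn2 and -0.61 to 0.32 for Ppp1r15a, on the log2 scale. None of these passed the adjusted threshold, which does not show that the drugs acted alike.

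**Figure D2:**
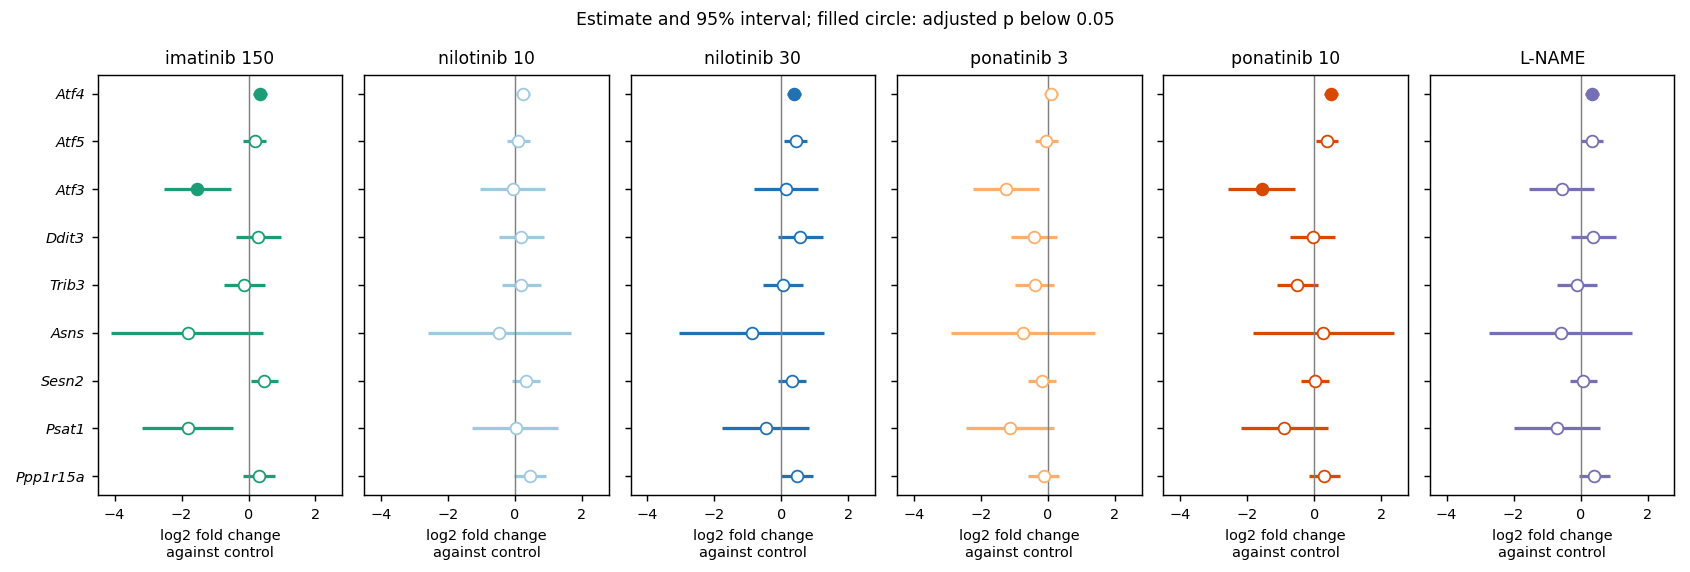
Log2 fold change against control of the 9 tested genes for each treated group (doses in mg/kg), with 95% intervals from the edgeR fit. Filled circles mark an adjusted p below 0.05, which Atf4 reached in 4 groups and Atf3, with negative estimates, in the imatinib and ponatinib 10 mg/kg groups. The intervals of Asns and Psat1 are the widest.

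Beyond the 10 genes, 5 further lists of the pathway hold 75 genes, 72 of them tested. The upstream list of the 4 EIF2 kinases, phosphatase subunits and EIF2 and EIF2B subunits had 17 genes, of which 3 were lower with ponatinib 10 mg/kg, 2 with L-NAME, 1 with imatinib and 1 with nilotinib 30 mg/kg, and none higher. In these comparisons 13.1%, 11.8%, 10.3% and 5.77% of all genes were called, and the list medians were -0.06, 0.0, -0.09 and -0.07. With the share of reads outside genes as a covariate, no call in this list held, nor did any other call over the 5 lists except that of Vegfa with ponatinib 10 mg/kg, so the values named here and in the next paragraph are those of the fit without it. Eif2ak3, which encodes the kinase PERK that senses unfolded protein, fell by 0.89 on the log2 scale with ponatinib 10 mg/kg (14.0 ± 4.72 against 25.8 ± 12.0 CPM, mean ± SD, adjusted p = 0.00627) and by 0.72 with imatinib (adjusted p = 0.0351). With the covariate these were -0.78 and -0.64 (adjusted p = 0.0986 and 0.138), and without the 3 libraries over 15000000 reads -0.65 and -0.48 (adjusted p = 0.0552 and 0.204). Dnajc3, encoding an inhibitor of EIF2 kinases, fell by 0.64 with ponatinib 10 mg/kg (adjusted p = 0.00421) and by 0.57 with L-NAME (adjusted p = 0.011). Eif2ak1, the haem-sensing kinase, fell by 0.38 with ponatinib 10 mg/kg (adjusted p = 0.0221), and Ppp1r15b, the constitutive partner of Ppp1r15a, fell by 0.44 with nilotinib 30 mg/kg (adjusted p = 0.0122).

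Downstream, none of the 8 tested amino acid transporters of 10 was called in any comparison with control by edgeR's fit of all groups together. Of 13 tested enzymes of amino acid and one-carbon metabolism, 2 were lower with nilotinib 30 mg/kg, the transaminases Gpt2 (-0.47 ± 0.15) and Got1 (-0.70 ± 0.21), and 1 with L-NAME (Gpt2, -0.44 ± 0.15). In these comparisons 5.77% and 11.8% of all genes were called. Of 13 genes for aminoacyl-tRNA synthetases and tRNA export, 3 were lower with L-NAME (11.8% of all genes called), 1 with ponatinib 10 mg/kg (13.1%) and another 1 with the 30 mg/kg dose of nilotinib (5.77%), led by Iars, the isoleucyl-tRNA synthetase, at -0.63 ± 0.16 with L-NAME (adjusted p = 0.00609) and -0.56 ± 0.16 with ponatinib 10 mg/kg (adjusted p = 0.0138). Among 21 stress regulators and secreted factors the calls against control were all higher, namely 1 with imatinib (10.3% of all genes called), 2 with ponatinib 10 mg/kg (13.1%) and 1 with L-NAME (11.8%). They were Vegfa, the vascular growth factor, at 0.85 ± 0.15 with ponatinib 10 mg/kg (362 ± 76.3 against 201 ± 37.0 CPM, adjusted p = 8.84e-05), 0.55 ± 0.15 with imatinib and 0.52 ± 0.15 with L-NAME, and Bbc3, which encodes the pro-apoptotic protein PUMA, at 0.73 ± 0.26 with ponatinib 10 mg/kg (adjusted p = 0.0457). Over the 5 lists, 6 of 72 genes were called with ponatinib 10 mg/kg, 7 with L-NAME, 4 with nilotinib 30 mg/kg, 2 with imatinib and none with nilotinib 10 mg/kg or ponatinib 3 mg/kg by edgeR. These are 8.33%, 9.72%, 5.56% and 2.78% of the 72 genes, beside 13.1%, 11.8%, 5.77% and 10.3% of all genes. With the covariate 1 of 72 was called with ponatinib 10 mg/kg (Vegfa, 0.58, adjusted p = 0.0374) and none with L-NAME, nilotinib 30 mg/kg or imatinib, beside 2.58%, 1.8%, 0.671% and 4.56% of all genes.

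The other branches of the unfolded protein response, were read from 16 targets of ATF6 and XBP1. With ponatinib 10 mg/kg 8 of 16 were lower (list median -0.48), where 13.1% of all genes were called, and with L-NAME 8 of 16 (median -0.53), where 11.8% were. With ponatinib 3 mg/kg 1 was lower (median -0.48) against 0.0419% of all genes, and with imatinib 1 was higher against 10.3%. With the share of reads outside genes as a covariate the counts were 0 with ponatinib 10 mg/kg (median -0.41) and 2 with L-NAME (median -0.38), the latter being Hyou1 and Edem1. Without the 3 libraries over 15000000 reads they were 5 (median -0.34) and 4 (median -0.30), and 0 with ponatinib 3 mg/kg. Hspa5, the chaperone BiP, was at 734 ± 212 CPM with ponatinib 10 mg/kg and 783 ± 157 CPM with L-NAME against 1420 ± 721 CPM in control (adjusted p = 0.00199 and 0.00564, and 0.0916 and 0.171 with the covariate), and Hyou1, another chaperone of this compartment, fell by 1.27 on the log2 scale with L-NAME, 1.23 with ponatinib 3 mg/kg and 1.09 with ponatinib 10 mg/kg (adjusted p = 0.000471, 0.0248 and 0.00189, and 0.0349, 0.0319 and 0.0729 with the covariate). The endoplasmic reticulum stress element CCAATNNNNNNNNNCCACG stood before the start site in 6 of the 14 of these genes that have a RefSeq window, in none of the 10 ATF4 genes, and in 0.113% of all windows. The Hspa5 match is shown with its element in capitals.
Hspa5, chr2:34772015-34772053, plus strand: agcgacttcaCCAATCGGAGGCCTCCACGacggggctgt
Of 12 immediate early genes, which share stimuli with Atf3, Jun fell by 1.67 with ponatinib 10 mg/kg (9.31 ± 6.17 against 29.7 ± 14.3 CPM, adjusted p = 0.000781, and 0.0272 with the covariate), and Ier2 was higher with nilotinib 30 mg/kg and L-NAME (adjusted p = 0.0337 and 0.0316, and 0.0726 and 0.0676 with the covariate). Of 8 p53 targets, Bax was higher with imatinib, nilotinib 30 mg/kg and ponatinib 10 mg/kg, with no call left under the covariate (adjusted p = 0.107, 0.247 and 0.0956), and Cdkn1a fell by 2.91 with ponatinib 3 mg/kg (2.11 ± 1.42 against 16.0 ± 15.1 CPM, adjusted p = 0.0248, and 0.25 without the 3 libraries over 15000000 reads). In both lists these were the only calls against control by edgeR, 0 or 1 gene in each comparison.

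Mice of the same treatment differed from one another far more in some members than in others. The SD of log2 CPM within groups was 1.10 for Atf3, 0.771 for Ddit3 and 0.656 for Trib3, against 0.199 for Atf4, 0.360 for Atf5, 0.411 for Sesn2 and 0.461 for Ppp1r15a, beside a median of 0.503 over all tested genes. It was 1.42 for Asns and 1.24 for Psat1, whose counts are low. From the lowest to the highest of the 56 mice, Atf3 spanned 48.7 times, Ddit3 14.5 times and Trib3 14.4 times, but Atf4 2.52 times. Control mouse 1 had the highest level of 7 of the 10 genes in its group (Atf4, Atf5, Atf3, Ddit3, Trib3, Asns and Sesn2), with 42.9 CPM of Ddit3 and 49.0 CPM of Trib3. Mouse 25 of nilotinib 10 mg/kg was the highest of its group in 5 (Atf3, Ddit3, Trib3, Sesn2 and Ppp1r15a), with 74.4 CPM of Trib3, and mouse 49 of nilotinib 30 mg/kg in 5 (Atf4, Atf3, Trib3, Psat1 and Phgdh), with 65.9 CPM of Trib3.

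After each group's mean was subtracted, 5 of the 45 pairs of members were correlated over the 56 mice at an adjusted p below 0.05 (permutation within groups, 100000 resamples, two-sided, adjusted over 45 pairs), all with positive sign. The closest pair was Trib3 with Ppp1r15a, both feedback genes, with Pearson's r = 0.586 and Spearman's rho = 0.621 (unadjusted permutation p = 4e-05 and 1e-05, the latter the smallest that the resamples can give, and adjusted p = 0.0009 and 0.000225). Atf3 was correlated with Trib3 (r = 0.519, rho = 0.577, adjusted permutation p = 0.0009 and 0.000225) and with Ddit3 (r = 0.517, rho = 0.572, adjusted permutation p = 0.0018 and 0.00075). Ddit3 was correlated with Trib3 (r = 0.514, rho = 0.465, adjusted permutation p = 0.0009 and 0.00405). Asns and Psat1, at few reads, were the fifth pair (r = 0.521, rho = 0.493, adjusted permutation p = 0.0009 and 0.00214). Without the 2 mice farthest from the median of the gene named first in each pair, the r of these pairs was 0.545, 0.506, 0.452, 0.494 and 0.566, and all 5 kept an adjusted p below 0.05.

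Atf4 was not correlated with any other member at this threshold. Its r was 0.136 with Trib3, 0.231 with Ddit3, 0.081 with Atf3, -0.145 with Asns and 0.019 with Atf5, with adjusted permutation p between 0.362 and 0.964. Within single groups of 8 mice the r between Ddit3 and Trib3 ranged from -0.194 with ponatinib 3 mg/kg to 0.892 with ponatinib 10 mg/kg, and that between Atf3 and Ddit3 from 0.049 with ponatinib 3 mg/kg to 0.879 in control. No member was correlated with the share of reads outside genes within groups (r between -0.181 and 0.077 over the 9 tested, lowest adjusted permutation p = 0.753).

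**Figure D3:**
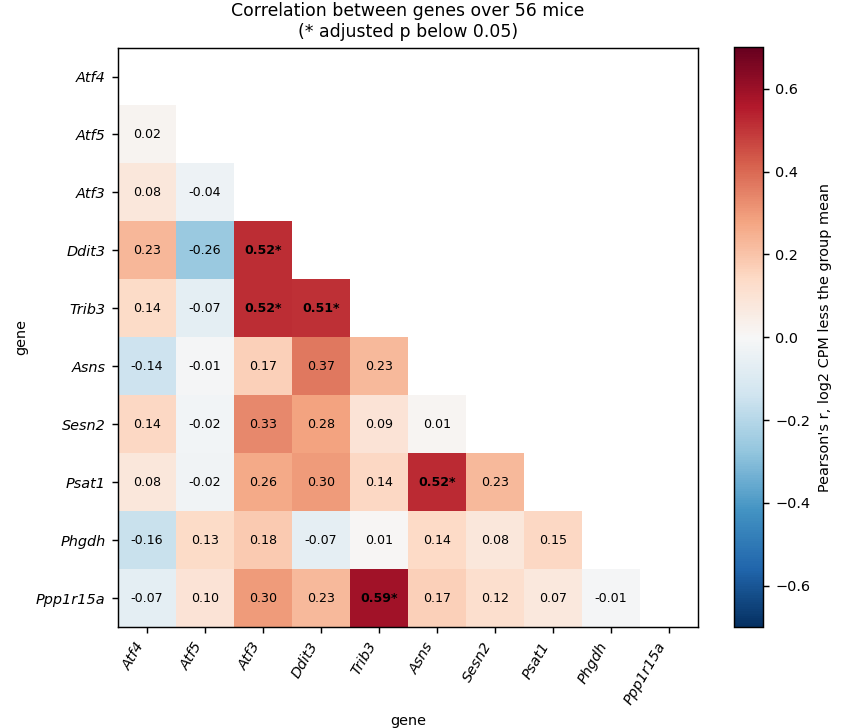
Pearson's r between each pair of the 10 genes over 56 mice, computed from log2 CPM after subtraction of the group mean. Asterisks mark the 5 pairs with an adjusted permutation p below 0.05, of which 4 join Atf3, Ddit3, Trib3 and Ppp1r15a. The first column, Atf4, holds no such pair.

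**Figure D4:**
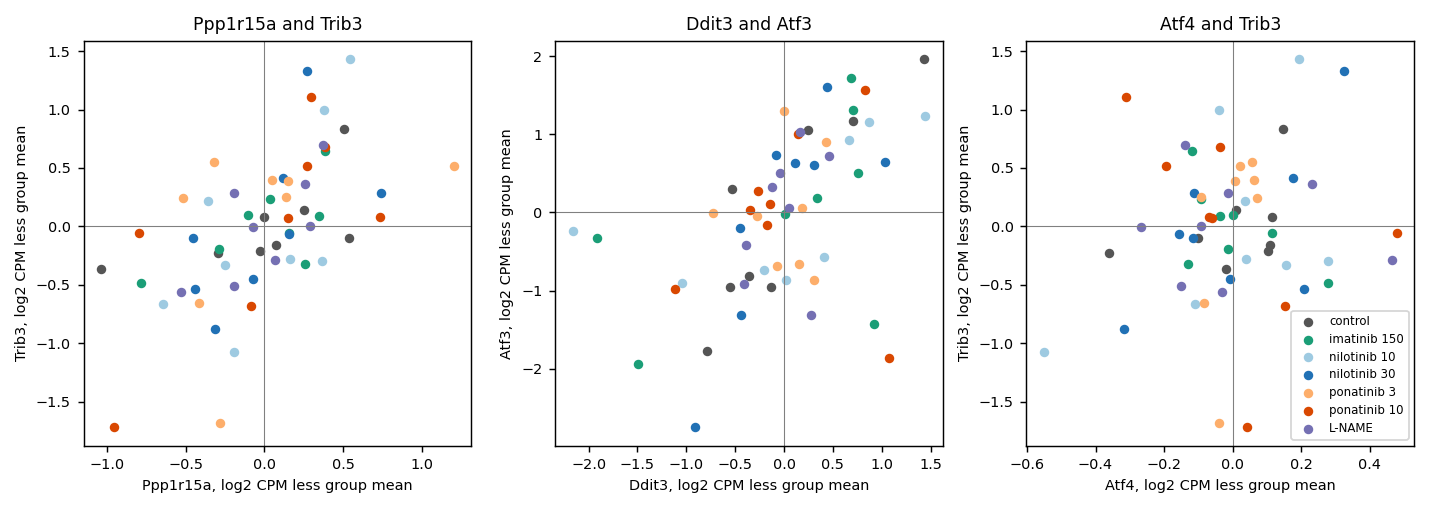
Deviation of each of the 56 mice from its group mean in log2 CPM, coloured by group, for Ppp1r15a and Trib3 (r = 0.586), Ddit3 and Atf3 (r = 0.517) and Atf4 and Trib3 (r = 0.136). Points spread along the diagonal in the first 2 panels and show no slope in the last, where Atf4 spans a narrower range than Trib3.

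Among the tested genes outside the set, those whose deviations over the 56 mice were most like Trib3 were Jun (r = 0.634, rho = 0.642), Adora1 (r = 0.572, rho = 0.579) and Itm2c (r = 0.571, rho = 0.553). For Atf4 they were Adgra2 (r = 0.548, rho = 0.495), Nexn (r = 0.533, rho = 0.453) and Ddx55 (r = 0.517, rho = 0.492). These were picked as the highest of 14314 genes and carry no test. Without the 2 mice farthest from the median of the member, r for the Atf4 neighbours was 0.385, 0.431 and 0.399, and for Jun with Trib3 it was 0.575.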

How the data were processed

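Liver poly(A) RNA of 56 mice (8 in each of 7 groups) was sequenced. Per the labels and the methods of the study, the authors aligned reads to GRCm38 with TopHat 2.0.14 and Bowtie 2.1.0, used SAMtools 0.1.18, and deposited raw counts per gene from HTSeq 0.6.1p1. The strand setting is not given in the sources used here, and multi-mapped reads were counted on no gene. The members and lists were chosen with earlier results of these data known. Counts of all mice were fitted together in edgeR 4.0.16 (R 4.3.3; TMM, filterByExpr, quasi-likelihood test), with Benjamini-Hochberg adjustment over 14314 genes and calls at an adjusted p below 0.05. CPM are TMM-scaled, and log2 CPM use a prior count of 2. Lines of the files that name no gene were left out of library sizes. limma 3.58.1 (voom with sample quality weights), DESeq2 1.42.0, other normalizations, no filter, 2-group fits and a covariate were alternatives. Exact permutation tests were two-sided. The fit was tested on simulated data. Named genes were all 10 members, at most 5 called genes per list by smallest adjusted p, and the 3 genes most like Atf4, Trib3 and Asns, of which the result for Asns is not reported here. GENCODE vM21 gave symbols and exon lengths, and RefSeq (GRCm38.p6) the promoters. The precision of each value rests on 8 mice per group and between 5342379 and 97473341 reads per mouse.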

Additional observations from a re-analysis of the deposited data

Results flagged for a closer look

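In 5 of 63 combinations of a tested gene with a group, 1 mouse stood farther from the other 7 than Dixon's criterion for 8 values allows on log2 CPM, where chance flags about 1 in 20. Nilotinib 10 mg/kg mouse 19 had the lowest Atf4 of its group, 74.3 CPM, and the next had 101 CPM. Control mouse 1 had the highest Trib3, 48.95 CPM, and the next had 30.1 CPM. Ponatinib 10 mg/kg mouse 18 had the highest Sesn2, 26.14 CPM against 17.3 CPM, while its Trib3 and Ddit3 were the lowest of that group. In the same group mouse 42 had no Psat1 read (0 CPM), and the next lowest had 1.48 CPM. Ponatinib 3 mg/kg mouse 34 had the highest Ppp1r15a, 21.25 CPM against 10.2 CPM. No explanation was tested.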

How the results depend on the processing

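Of 534 refits or other readings of the 54 member estimates against control, 497 kept direction and side of the threshold, and none changed under RLE or upper-quartile normalization. Alternatives that left out the deepest libraries (over 15000000 reads) or those with over 12% of reads outside genes were chosen after seeing the data. Members called against control fell from 2 to 1 with imatinib under no filter, without the deepest libraries, without the libraries over 12% and under limma voom, and to 0 with the covariate. With ponatinib 10 mg/kg they fell from 2 to 1 with the covariate and without the deepest libraries. With nilotinib 30 mg/kg they went from 1 to 0 with the covariate and to 2 under limma voom, and with L-NAME from 1 to 0 under no filter and with the covariate and to 2 under limma voom. In these groups the share of all genes called fell as well with the covariate, under no filter and under either exclusion of libraries. It rose under limma voom, and the shares are given below. For the alternative fits between treated groups, the share of all genes called was not computed. Between the ponatinib doses the 1 call was 0 under no filter, the covariate, either exclusion of libraries and the 2-group fit. Between imatinib and nilotinib 30 mg/kg it was 0 without the libraries over 12%, in the 2-group fit and under limma voom. Between ponatinib at 10 and nilotinib at 30 mg/kg it was 1 under DESeq2 and at the unadjusted cut-off of 0.01, and against nilotinib 10 mg/kg it was 1 at that cut-off. In the test over all groups without the filter, Phgdh was called, with 95 reads in all.

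In the 5 pathway lists the covariate left 0 called with imatinib, nilotinib 30 mg/kg and L-NAME, 1 with ponatinib 10 mg/kg and 3 over all groups. limma voom called 8 with imatinib, 6 and 9 with nilotinib 10 and 30 mg/kg, 2 and 16 with ponatinib 3 and 10 mg/kg, 15 with L-NAME and 29 over all groups. Of all genes it called 23.2% with imatinib, 8.66% and 16.4% with nilotinib, 3.99% and 26.1% with ponatinib and 26.1% with L-NAME. Without the deepest libraries 1, 2 and 1 were called with imatinib, nilotinib 30 mg/kg and L-NAME, and without those over 12% 2 with nilotinib 30 mg/kg and 3 with L-NAME. Upper-quartile scaling gave 2 with nilotinib 30 mg/kg and 4 with L-NAME, the 2-group fit 4 with imatinib, DESeq2 1 with nilotinib 10 mg/kg, and the unadjusted cut-off 2 with ponatinib 3 mg/kg and 4 with the 10 mg/kg dose of nilotinib. For the 16 ATF6 and XBP1 targets the covariate left 0 with imatinib and ponatinib 10 mg/kg and 2 with L-NAME, the exclusion of the deepest libraries 0, 5 and 4 with ponatinib 3 and 10 mg/kg and L-NAME, the exclusion of those over 12% 0 with imatinib, and the 2-group fit 0 with imatinib and ponatinib 3 mg/kg, 5 with ponatinib 10 mg/kg and 1 with nilotinib 30 mg/kg. limma voom called 3 with imatinib, 1 and 2 with nilotinib 10 and 30 mg/kg and 6 with ponatinib 3 mg/kg, DESeq2 4 with ponatinib 3 mg/kg and 1 with nilotinib 30 mg/kg, and no filter 3 with the 3 mg/kg dose of ponatinib. The unadjusted cut-off gave 10 with ponatinib 3 mg/kg, and also 1 with nilotinib 30 mg/kg, beside 3.14% and 9.35% of all genes. Over the 12 immediate early genes and 8 p53 targets together, the covariate left the calls of Jun and Cdkn1a, that is 1 with each ponatinib dose and 0 elsewhere. With imatinib, where 1 was called, limma voom called 5, DESeq2 2 and the unadjusted cut-off 3. With L-NAME, also 1, it was 0 under either exclusion of libraries, 4 in the 2-group fit, 5 under limma voom and 2 under DESeq2 and at the unadjusted cut-off. Nilotinib 30 mg/kg went from 2 to 1 under no filter and without the deepest libraries, ponatinib 3 mg/kg from 1 to 0 without the deepest libraries and in the 2-group fit, and ponatinib 10 mg/kg from 2 to 4 in the latter. Shares of all genes follow for imatinib, nilotinib 10 and 30 mg/kg, ponatinib 3 and 10 mg/kg and L-NAME. DESeq2 called 12.7%, 3.64%, 8.55%, 0.328%, 15.8% and 14.7%. The 2-group fits called 13.3%, 2.24%, 10.7%, 0.0%, 13.3% and 19.0%. Without the deepest libraries it was 7.2%, 0.997%, 4.72%, 0.0%, 9.65% and 7.13%. Without those over 12% it was 7.56%, 1.16%, 4.9%, 0.041%, 8.97% and 8.57%. Without the filter on low counts it was 5.55%, 0.528%, 2.94%, 0.0582%, 7.9% and 6.54%, of 24040 genes. With the covariate it was 4.56%, 0.0908%, 0.671%, 0.0419%, 2.58% and 1.8%. Upper-quartile scaling called 10.4%, 1.48%, 5.77%, 0.0419%, 13.3% and 11.8%.

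The relaxed promoter letters, also chosen after seeing the data, raised the members with a match from 3 to 6.

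Estimates that changed sign were of members not called. Without the deepest libraries they were Trib3 with imatinib (0.04) and L-NAME (0.12), Atf3 with nilotinib 10 mg/kg (0.35), Sesn2 (0.01) and Ppp1r15a (0.02) with ponatinib 3 mg/kg and Ddit3 with ponatinib 10 mg/kg (0.27), which was also 0.01 without the libraries over 12%. With the covariate they were Trib3 with imatinib (0.09) and L-NAME (0.19). Under limma voom they were Atf3 (0.01) and Psat1 (-0.13) with nilotinib 10 mg/kg, Atf3 (-0.05) and Trib3 (-0.11) with nilotinib 30 mg/kg, Atf5 with ponatinib 3 mg/kg (0.08), Ddit3 (0.07), Asns (-0.82) and Sesn2 (-0.19) with ponatinib 10 mg/kg and Sesn2 with L-NAME (-0.05). The cause was not tested. The number of correlated pairs was 5, and 6 by Spearman. No paired analysis was possible because no mouse number is shared between groups. Depth limits Asns, Psat1 and Phgdh.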
